A study of Rattus norvegicus with 10 samples.

Results

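The transcripts examined were those of 7 antioxidant and cytoprotective enzymes or enzyme subunits and of the transcription factor Nrf2 in the cerebral cortex of fetal rats. They are Sod1, Sod2, Cat, Gclc, Gclm, Hmox1, Nqo1 and Nfe2l2, chosen by Ensembl identifier, and all 8 were found on the stated chromosome among the 26404 features listed. The rule that lists them goes by known function and uses no measured value, but it was written with earlier results of these data known. Counts of RNA-seq reads were available for the right side of the cerebral cortex in 10 fetuses of the Sprague Dawley strain at embryonic day 21, 24 h after the dam was treated. The oxytocin group held 5 pups of 5 dams given 100 mcg per kg oxytocin intravenously, and the saline group held 5 pups of 5 other dams given an equal volume of saline. Fetal sex is not among the labels, and each library is bulk RNA of a whole piece of cortex.

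Oxytocin is the peptide hormone that contracts the uterus, and the study asked which fetal cortical transcripts differ after contractions it induced. Strong contractions can interrupt placental blood flow, and the return of oxygen to a tissue is a textbook source of superoxide and hydrogen peroxide. Superoxide dismutases turn superoxide into hydrogen peroxide, catalase and glutathione-dependent peroxidases remove the peroxide, and Nrf2 is the factor that raises many of these genes under oxidative stress. Nrf2 is held in the cytosol by Keap1 and degraded, so its activity is set largely at the protein level, which RNA counts do not read. When released it binds the antioxidant response element, a short DNA motif near genes such as Gclm, Gclc, Nqo1 and Hmox1.

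All 8 genes were expressed and passed the filter on low counts, which kept 14400 features. The libraries held 18555172 to 30404127 assigned counts, with 18723390 to 30404127 after oxytocin and 18555172 to 20776414 after saline. The share of counts on mitochondrial genes was 6.32% to 6.61% after oxytocin and 5.18% to 5.996% after saline, with no overlap. Factors of TMM scaling, which corrects library totals for composition, ran from 0.983 to 0.996 after oxytocin and from 1.001 to 1.024 after saline, also without overlap. No batch is given by the labels, which place all libraries in 1 sequencing run. Other genes of the Nrf2 pathway, among them Keap1, and markers of neurons, glia, microglia, vessels and blood were not analysed here, because no table at hand links the identifiers of the files to symbols. The labelled tissue was therefore not checked against its markers. In bulk RNA, fewer cells of a type and less RNA per cell cannot be told apart.

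The stretches before the start sites of Gclm, Sod2 and Cat are shown because the first pair hold a match to the antioxidant response element core and Cat had the smallest p among the 8 genes. Each is the 250 bases before the RefSeq start site in build GRCr8, written 5′ to 3′ along the gene. They lie at chr2:213031885-213032134 (plus strand), chr1:50050169-50050418 (minus) and chr3:110329527-110329776 (minus). RefSeq's table gave such a stretch for 7 of the 8 genes, all but Hmox1, at 1 start site a gene. For Nfe2l2, Gclc and Sod1, 250, 225 and 81 of the 250 bases lie inside the gene's own RefSeq span. That span reaches farther out than the start site used, so these stretches are not printed. All matches of Nfe2l2 and some of those of Gclc and Sod1 lie within the span. The stretches of the other 4 genes hold 0 bases inside their gene's span. Capitals mark matches, on either strand, to any of 5 motifs searched by their letters.
Gclm: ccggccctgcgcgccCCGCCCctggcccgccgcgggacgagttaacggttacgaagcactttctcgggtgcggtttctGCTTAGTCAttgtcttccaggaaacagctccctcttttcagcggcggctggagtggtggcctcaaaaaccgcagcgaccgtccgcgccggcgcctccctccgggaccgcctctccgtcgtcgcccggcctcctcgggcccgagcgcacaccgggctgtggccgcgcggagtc
Sod2: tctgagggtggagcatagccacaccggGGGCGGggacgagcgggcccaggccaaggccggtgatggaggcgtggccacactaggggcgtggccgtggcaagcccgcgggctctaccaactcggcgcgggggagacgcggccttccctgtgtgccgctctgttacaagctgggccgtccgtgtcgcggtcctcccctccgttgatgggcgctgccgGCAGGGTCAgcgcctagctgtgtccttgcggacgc
Cat: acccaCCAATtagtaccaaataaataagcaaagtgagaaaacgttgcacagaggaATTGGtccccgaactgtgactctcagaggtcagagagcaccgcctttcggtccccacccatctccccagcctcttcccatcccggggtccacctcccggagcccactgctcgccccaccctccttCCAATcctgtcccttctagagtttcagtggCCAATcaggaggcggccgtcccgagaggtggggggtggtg

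The antioxidant response element core, TGACNNNGC, matched in Gclm, 172 to 164 bases before the start on the opposite strand (GCTTAGTCA), and in Sod2, 35 to 27 bases before it (GCAGGGTCA, also opposite). It was in 2 of the 7 stretches and in 10.1% of the 33469 stretches of the same length in the table. Only these 250 bases were searched, so a stretch without a match does not show that the gene lacks the element. Hmox1 had no stretch to search. The GC box GGGCGG, bound by Sp1-family factors, was in 6 of the 7, all but Cat, against 30.5% of all stretches. Nfe2l2 alone held 6 GC boxes, 2 of which share a base. The CCAAT box, CCAAT, was in Cat, Sod1 and Nqo1, against 34.0% of all, and 4 copies stood in the Cat stretch. The TATA box, TATAAA, was in Sod1, Nqo1 and Gclc, against 12.9% of all, and the AP-1 core TGANTCA was in 0 of the 7, against 6.34%. These counts include matches within the gene's own span: all those of Nfe2l2, the GC box of Gclc and the CCAAT and TATA boxes of Sod1. How many stretches of the whole table reach into their gene was not examined. G and C made up 56.4% of the Nqo1 stretch, 58.8% of that of Cat and 63.2% to 74.8% of the other 5, where the median of the table was 51.2%. A match describes letters and is no evidence of binding.

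The levels of these genes, per kilobase of listed exon, spanned a wide range and kept nearly the same order in every fetus. In deposited RPKM, which is CPM per kilobase, Sod1 was first in 10 of 10 libraries with 132 to 213, then Cat with 54.2 to 63.7, and Sod2 next with 20.6 to 26.7. Gclc followed with 14.4 to 16.9 and Gclm with 11.5 to 16.0. Nqo1, Hmox1 and Nfe2l2 formed the low end, between 3.61 and 6.96, and took ranks 6 to 8 in changing order. The cytosolic dismutase, catalase and the mitochondrial dismutase thus stood above the glutathione synthesis subunits on this scale, and heme oxygenase 1, the quinone reductase and the Nrf2 gene stood lowest. This order rests on the listed exon length, 650 bases for Sod1 and 2436 for Cat. In deposited CPM, not divided by length, Cat had the higher mean, 148 against 108 for Sod1 after oxytocin and 139 against 111 after saline. Saline replicate 1 alone went the other way, with 132 against 138. Gclc and Sod2 changed places in CPM, with 43.7 and 52.5 in oxytocin replicate 1 and 51.6 and 49.5 in oxytocin replicate 2.

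In RPKM, neighbours in that order were apart in all 10 libraries down to Gclm. Sod1 was 2.27 to 3.93 times Cat, Cat was 2.07 to 2.98 times Sod2, and Sod2 was 1.24 to 1.77 times Gclc. Gclc exceeded Gclm in 10 of 10 libraries, but their ranges overlapped, and in oxytocin replicate 1 Gclm reached 0.998 of Gclc. Hmox1 exceeded Nfe2l2 in 7 of 10 libraries, and Nfe2l2 exceeded Nqo1 in 4 of 10, so these neighbours did not differ beyond their spread. Among the features tested, mean RPKM put Sod1 at the 97.5 percentile, Cat at 89.0 and Sod2 at 69.9, and put Hmox1, Nfe2l2 and Nqo1 between 30.3 and 31.7.

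**Figure D1:**
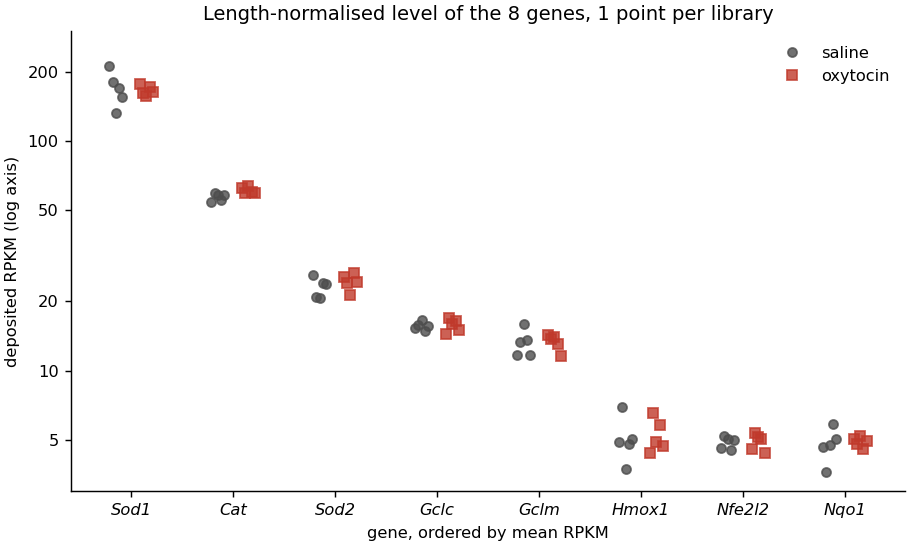
Deposited RPKM (log axis) of the 8 genes in each of the 10 libraries, grey circles for saline and red squares for oxytocin, ordered by mean. Sod1 lies highest, at 132 to 213, and Hmox1, Nfe2l2 and Nqo1 share the range from 3.61 to 6.96.

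Between oxytocin and saline, none of the 8 genes passed the test over all features. In edgeR's quasi-likelihood test with Benjamini-Hochberg adjustment, 0 of 8 passed an adjusted p of 0.05, and 0 of 14400 features did (0.0% higher and 0.0% lower). At an unadjusted p under 0.05 stood 514 features (3.57%), 1.93% of all being higher and 1.64% lower after oxytocin. Cat was the 1 of the 8 genes among them. DESeq2 called 7 of 5338 features with an adjusted p (0.131%), and edgeR's likelihood ratio test called 2, with 0 of the 8 genes among them. DESeq2 could not call 4 of the 8, Hmox1, Nqo1, Gclm and Nfe2l2, because it gave them no adjusted p. The log2 fold change was above 0 for 7 of the 8 genes and for 48.2% of all features. Its median was 0.052 over the 8 genes and -0.003 over all features, while its median size was 0.052 and 0.054. The adjusted p was 0.9997 for each of the 8 in that edgeR test.

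**Figure D2:**
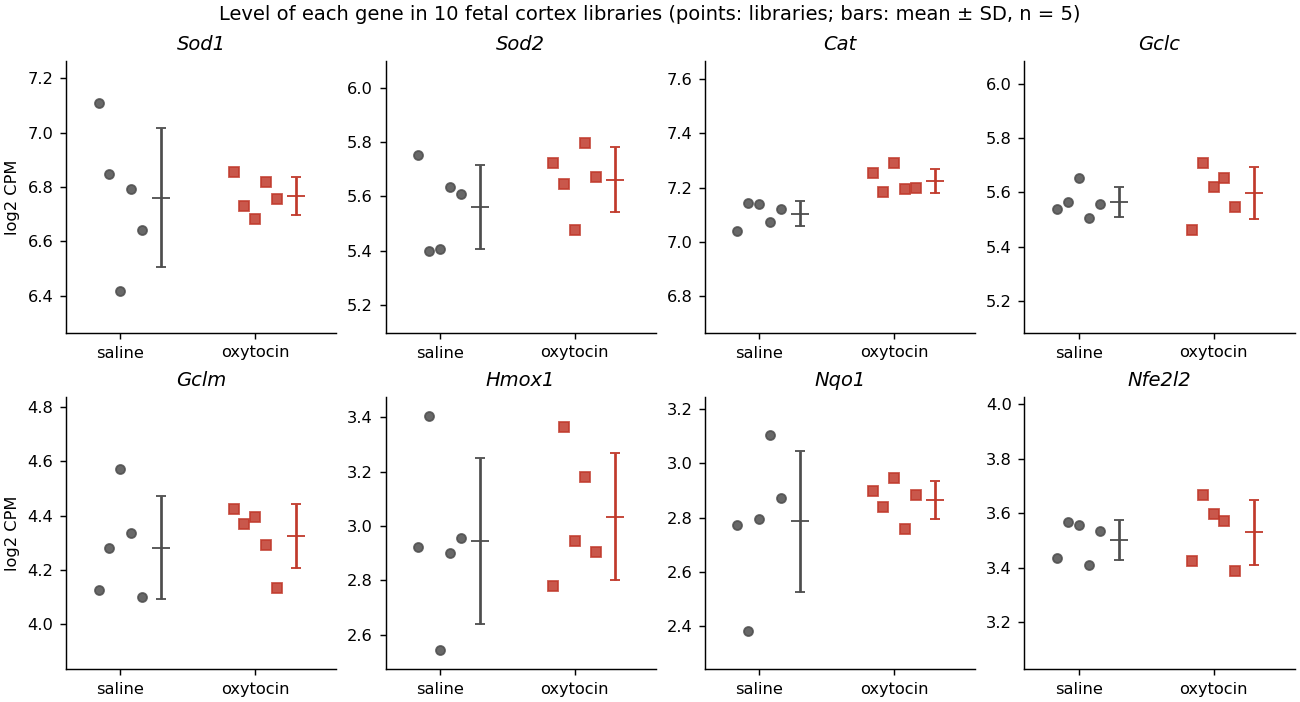
Log2 CPM with TMM scaling of each gene in every library, grey circles for saline and red squares for oxytocin, with mean ± SD (n = 5 each) beside them; each vertical axis spans the same range. The groups overlap for 7 of the 8 genes, and for Cat the 5 oxytocin libraries lie above the 5 saline libraries.

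The superoxide dismutases differ in place and metal: Sod1 encodes the copper-zinc enzyme of the cytosol and Sod2 the manganese enzyme of the mitochondrial matrix. Sod1 (ENSRNOG00000002115, chromosome 11, 33982764 to 33988340, plus strand, 5 exons, build Rnor_5.0 here and for the genes that follow) had 115, 105, 102, 112 and 106 deposited CPM in the 5 oxytocin libraries. The 5 saline libraries had 138, 118, 85.9, 111 and 101 CPM. Saline replicate 1 was the highest of all and saline replicate 3 the lowest, and the oxytocin values lay between them. Oxytocin minus saline, the log2 fold change was -0.011 ± 0.099 (SE), with a 95% interval of the fold change from 0.856 to 1.15. That value turned to 0.085 without saline replicate 1, so no direction can be given.

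Sod2 (ENSRNOG00000019048, chromosome 1, 51827380 to 51834230, plus strand, 5 exons) had 52.5, 49.5, 44.2, 55.1 and 49.9 CPM after oxytocin. After saline it had 54.0, 43.1, 42.6, 49.7 and 49.3 CPM. The lowest 2 values were saline and the highest was oxytocin replicate 4, but the groups overlapped over most of their range. Sod2 differed by a log2 fold change of 0.10 ± 0.077 (SE, n = 5 each), and the 95% interval of the fold change ran from 0.956 to 1.20. RefSeq lists a pseudogene of Sod2, and how reads matching more than 1 place were counted is not given in the sources used here.

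The balance between the mitochondrial and the cytosolic dismutase was read within each library, where no scaling between libraries is needed. The ratio of Sod2 counts to Sod1 counts was 0.456, 0.471, 0.434, 0.493 and 0.471 after oxytocin. It was 0.390, 0.366, 0.496, 0.449 and 0.487 after saline. The oxytocin ratios lay inside the saline range. In the oxytocin group the mean log2 ratio was -1.11 ± 0.068 and in the saline group -1.20 ± 0.19 (SD over 5 libraries), a difference of 0.096 that was within the spread between fetuses (two-sided exact permutation, p = 0.357, adjusted to 0.714 for the 2 ratios).

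Cat encodes catalase, the peroxisomal heme enzyme that splits hydrogen peroxide into water and oxygen. Cat (ENSRNOG00000008364, chromosome 3, 100021859 to 100053940, minus strand, 13 exons) had log2 CPM of 7.25, 7.18, 7.29, 7.20 and 7.20 after oxytocin. After saline the values were 7.04, 7.14, 7.14, 7.07 and 7.12. Every oxytocin library lay above every saline library, which 0.375% of all tested features also showed and 0.701% showed in either direction. The means were 7.22 ± 0.045 and 7.10 ± 0.045 log2 CPM (SD, n = 5 each).

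The log2 fold change of Cat was 0.12 ± 0.04 (SE), or 1.09-fold with a 95% interval from 1.02 to 1.15. Its unadjusted p was 0.0103 and its adjusted p 0.9997 in edgeR's quasi-likelihood test, and 90 of the 14400 features had a p as small or smaller. Cat held 2515 to 4613 counts in a library, which puts counting error at 1.47% to 1.99% of its value. Its spread within groups was among the smallest measured: 2.38% of the features tested had a within-group SD of log2 CPM as small or smaller.

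The separation of the Cat groups rested on the scaling. In deposited CPM, which has no composition factor, Cat had 152, 144, 155, 145 and 144 after oxytocin and 132, 145, 142, 135 and 141 after saline. There 3 of 5 oxytocin libraries exceeded every saline library, and saline replicate 2 lay above oxytocin replicates 2 and 5. With library size alone the log2 fold change was 0.094 and the unadjusted p 0.0451. With totals and factors from nuclear features alone, which leaves out the mitochondrial counts, the log2 fold change was 0.121. Whether the mitochondrial share bears on the difference was not tested. The TMM factors, which also differ between the groups, move with the result for Cat, and whether they should be applied was not tested.

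**Figure D3:**
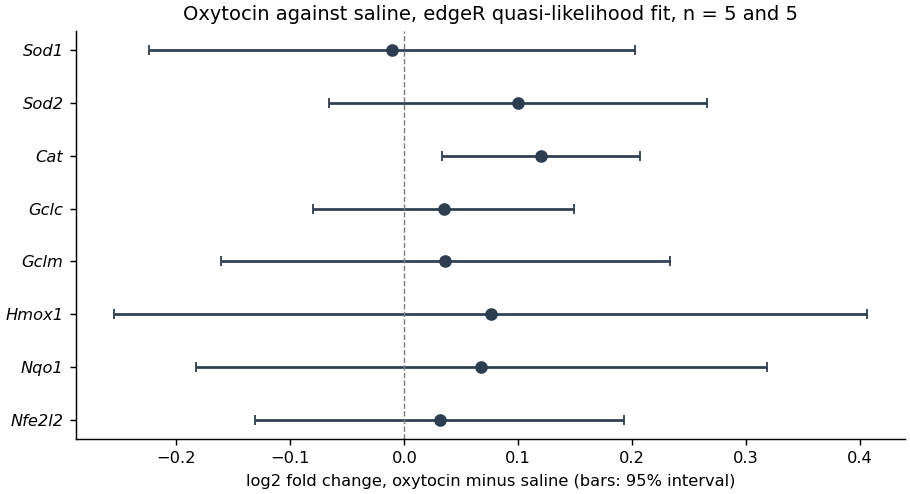
Log2 fold change of each gene, oxytocin minus saline, in edgeR's quasi-likelihood fit (points) with its 95% interval before any adjustment for the number of features (bars, n = 5 and 5). The interval of Cat runs from 0.033 to 0.21 and those of the other 7 genes include 0.

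Gclc and Gclm encode the catalytic and the modifier subunit of glutamate-cysteine ligase, the rate-limiting enzyme of glutathione synthesis. Gclc (ENSRNOG00000006302, chromosome 8, 84627768 to 84666185, plus strand, 16 exons) had 43.7, 51.6, 48.8, 49.9 and 45.8 CPM after oxytocin. After saline it had 46.6, 48.3, 50.5, 45.4 and 47.6 CPM. Oxytocin libraries were both the highest and the lowest, with the saline values between. The log2 fold change was 0.035 ± 0.053 (SE, n = 5 each), and the 95% interval of the fold change, 0.946 to 1.11, was among the narrowest of the 8 genes, second to that of Cat.

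Gclm (ENSRNOG00000013409, chromosome 2, 243862903 to 243883273, plus strand, 7 exons) had 21.3, 20.4, 20.8, 19.3 and 17.1 CPM after oxytocin. After saline it had 17.4, 19.8, 23.8, 20.1 and 17.3 CPM. In CPM, saline replicate 3 was the highest and oxytocin replicate 5 the lowest, and the groups overlapped throughout. With TMM scaling saline replicate 5 was the lowest, at 4.10 log2 CPM against 4.13 for oxytocin replicate 5. For Gclm the log2 fold change was 0.036 ± 0.091 (SE, n = 5 each), with a 95% interval of the fold change from 0.894 to 1.18. It fell to -0.003 without saline replicate 1 and to -0.008 without saline replicate 5.

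The ratio of modifier to catalytic subunit differed between the groups by less than the spread between fetuses. Gclm counts were 0.487, 0.395, 0.427, 0.388 and 0.374 of Gclc counts after oxytocin and 0.374, 0.410, 0.471, 0.443 and 0.364 after saline. Per listed kilobase the ratio ran from 0.745 to 0.998, so the modifier transcript was at or below the catalytic transcript in each library on that scale. In the oxytocin group the mean log2 ratio of counts was -1.28 ± 0.15 and in the saline group -1.28 ± 0.16 (SD over 5 libraries), a difference of 0.007 (two-sided exact permutation, p = 0.976, adjusted to 0.976 for the 2 ratios).

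**Figure D4:**
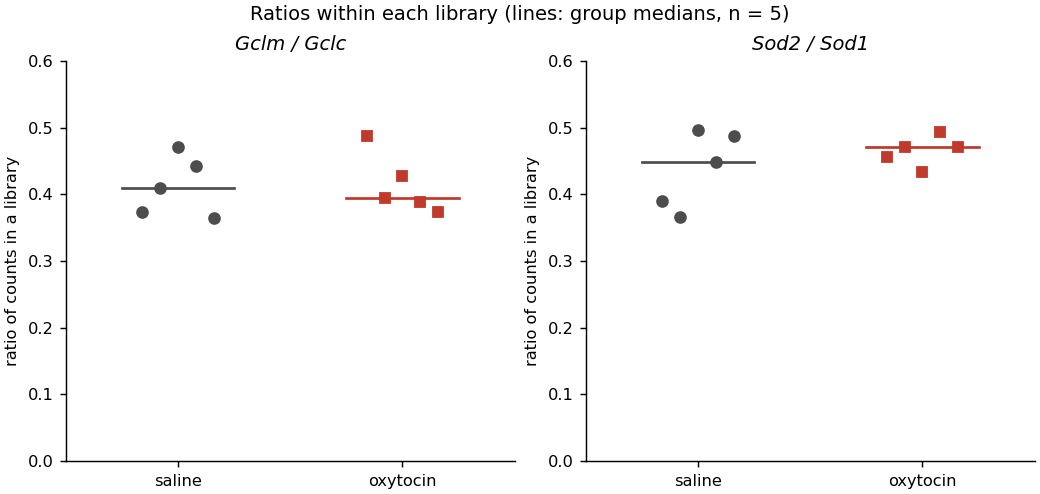
Ratio of counts in each library for Gclm to Gclc (left) and Sod2 to Sod1 (right), grey circles for saline and red squares for oxytocin, with a line at each group's median (n = 5). The Gclm to Gclc ratio lies between 0.364 and 0.487 and the Sod2 to Sod1 ratio between 0.366 and 0.496, with the groups overlapping in each.

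Hmox1 encodes heme oxygenase 1, the inducible enzyme that breaks heme down to biliverdin, iron and carbon monoxide. Hmox1 (ENSRNOG00000014117, chromosome 19, 25622556 to 25629372, plus strand, 5 exons) had 6.74, 10.1, 7.56, 8.91 and 7.26 CPM after oxytocin. After saline it had 7.52, 10.7, 5.78, 7.38 and 7.76 CPM. Replicate 2 of each group was the highest, which shares a number only, and saline replicate 3 was the lowest. For Hmox1 the log2 fold change was 0.076 ± 0.15 (SE, n = 5 each), with a 95% interval of the fold change from 0.838 to 1.32, the widest of the 8 genes. It turned to -0.023 without oxytocin replicate 2 and to -0.016 without saline replicate 3. Hmox1 held 114 to 251 counts in a library, so counting error alone was 6.31% to 9.37% of its value, while the CV of its CPM between fetuses was 16.8% after oxytocin and 23.0% after saline.

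Nqo1 encodes the quinone reductase widely used as a readout of Nrf2. Nqo1 (ENSRNOG00000012772, chromosome 19, 49291903 to 49306795, plus strand, 6 exons) had 7.34, 6.998, 7.56, 6.62 and 7.16 CPM after oxytocin. After saline it had 6.76, 5.25, 6.89, 8.50 and 7.33 CPM. The saline group held both the lowest and the highest library, replicates 2 and 4, and the oxytocin values lay between. Nqo1 had a log2 fold change of 0.067 ± 0.12 (SE, n = 5 each), with a 95% interval of the fold change from 0.881 to 1.25, and it was -0.024 without saline replicate 2. Nqo1 held 109 to 223 counts in a library, and its CV in the oxytocin group, 5.02%, was below the counting error of 6.70% to 8.77%.

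Nfe2l2, the gene for Nrf2 itself (ENSRNOG00000001548, chromosome 3, 69041647 to 69069072, minus strand, 5 exons), had 10.6, 12.5, 11.9, 11.7 and 10.2 CPM after oxytocin. After saline it had 10.8, 12.0, 11.7, 10.5 and 11.6 CPM. The highest library, oxytocin replicate 2, and the lowest, oxytocin replicate 5, were of the same group. The log2 fold change was 0.031 ± 0.075 (SE, n = 5 each), with a 95% interval of the fold change from 0.913 to 1.14, and it was -0.009 without oxytocin replicate 2. Counts of Nfe2l2 were 191 to 322 in a library.

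Over the 8 genes, the unadjusted 95% intervals of the fold change stayed between 0.838 and 1.32. The intervals of Sod1, Sod2, Hmox1, Nqo1, Gclc, Gclm and Nfe2l2 include no change, which does not show that these transcripts were equal in the 2 groups.

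Across the 10 fetuses, Gclc followed Nfe2l2. Of 7 relations of Nfe2l2 with the other genes, tested on log2 CPM with permutations of the pairing, that with Gclc passed 0.05 after adjustment. Pearson's r was 0.854 (permutation test, n = 10, p = 0.00213, adjusted p = 0.0149 over 7 relations) and Spearman's rho was 0.855 (permutation test, p = 0.00312, adjusted p = 0.0218). Both genes were highest in oxytocin replicate 2, at 3.67 log2 CPM for Nfe2l2 and 5.71 for Gclc. Oxytocin replicates 1 and 5 and saline replicates 1 and 4 were the 4 lowest for Nfe2l2, at 3.39 to 3.44, and also the 4 lowest for Gclc, at 5.46 to 5.55.

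With each gene centred on its group mean, which removes the treatment difference, the r of Nfe2l2 with Gclc was 0.851 (permutation test, n = 10, adjusted p = 0.0122). Without oxytocin replicate 5 and saline replicate 4, the libraries farthest from the median of Nfe2l2, r was 0.884. Without oxytocin replicate 2, r was 0.783 and the adjusted p 0.111 (permutation test), so the call rests on that library. Among the 14399 other tested features, 29 (0.201%), Gclc included, had an r with Nfe2l2 at least as high, where the median r was 0.015 and the quartiles -0.32 and 0.311. The points share their libraries and scaling factors, and cell composition that differs between pieces of cortex was not tested.

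**Figure D5:**
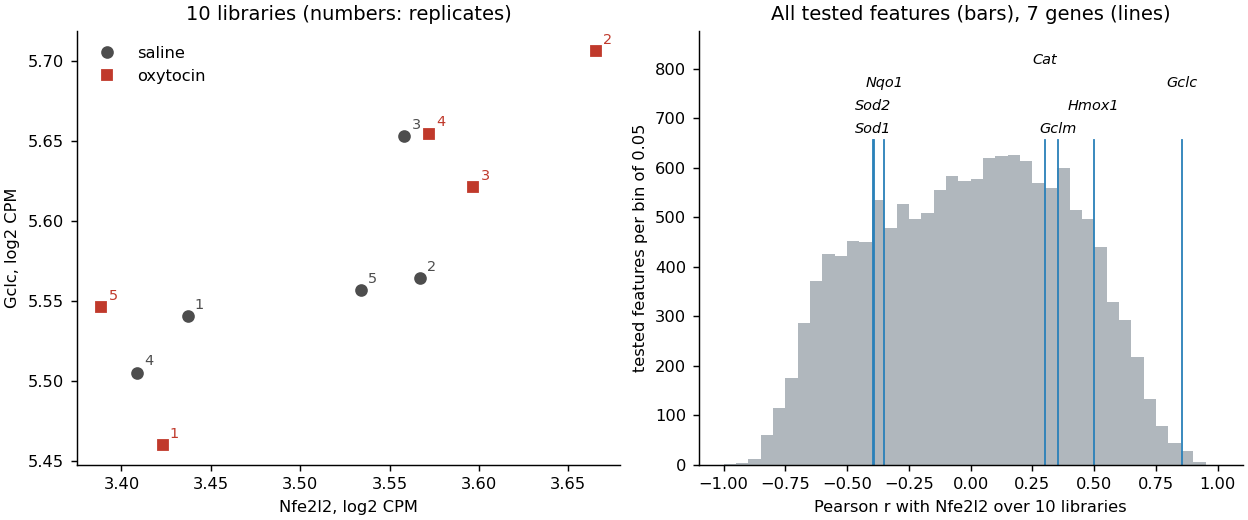
Left, log2 CPM of Gclc against Nfe2l2 in the 10 libraries, numbered by replicate, grey circles for saline and red squares for oxytocin. Right, number of tested features per bin of Pearson r with Nfe2l2 over the 10 libraries (bars), with lines at the 7 other genes: Gclc stands at 0.854 and the other 6 between -0.396 and 0.498.

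The relations of Nfe2l2 with the other 6 genes did not pass the test. Pearson's r with Nfe2l2 was 0.498 for Hmox1, 0.352 for Gclm and 0.301 for Cat, and it was -0.349 for Nqo1, -0.393 for Sod2 and -0.396 for Sod1 (permutation tests, n = 10, adjusted p = 0.398 for each over 7 relations). Spearman's rho for Hmox1 was 0.636 (permutation test, p = 0.0553, adjusted p = 0.193), and for the other 5 it ran from -0.382 to 0.273. For Hmox1, r was 0.754 without saline replicate 3 (permutation test, adjusted p = 0.0739). Whether the r of Gclc differs from those of the other genes was not tested.

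Among the 21 pairs without Nfe2l2, r ran from -0.538 (Sod1 with Gclm) to 0.595 (Sod1 with Sod2), with a median of 0.037, and was above 0 in 11. The ligase subunits Gclc and Gclm had an r of 0.310, and Hmox1 and Nqo1 one of -0.521. These 10-point values are given as a description. Saline replicate 3 was the highest library for Gclm and the lowest for Sod1 and Hmox1.

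The tested features most like Nfe2l2 outside the 8 genes were ENSRNOG00000017706 (chromosome 5, 161489691 to 161497053, minus strand), with an r of 0.933 over the 10 libraries, and ENSRNOG00000017874 (chromosome 2, 228956411 to 229004207, minus strand), with 0.929. They held 95 to 174 and 41 to 95 counts in a library. Their log2 fold changes were 0.009 ± 0.11 and 0.20 ± 0.16 (SE), with an adjusted p of 0.9997 each in edgeR's quasi-likelihood test. No gene name is paired with either identifier.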

How the data were processed

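RNA selected with oligo-dT was sequenced from 10 libraries, 5 per group, grouped by the treatment label. Per the submitters' processing notes, the tools were bcl2fastq, STAR 2.0.4b and Subread featureCounts 1.45 and the build was Rnor_5.0; strand handling is not given in the sources used here. The authors deposited whole-number counts per feature, CPM (the count over the library's total, on a common scale) and RPKM (CPM per kilobase of listed exons), per the file headers; recomputing them from the counts gave deviations of at most 4.18e-11 and 7.09e-11.

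Counts were filtered with filterByExpr, scaled with TMM and tested with edgeR 4.0.16 (R 4.3.3, glmQLFit defaults, no covariate), with Benjamini-Hochberg adjustment over all 14400 features and a threshold of 0.05. The SE is the log2 fold change over the square root of F. Levels are log2 CPM with a prior count of 2. Ratios were tested with exact permutation over 252 splits, whose smallest p is 0.0079, and correlations with 100000 permutations of the pairing.

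The genes named are the 8 listed, any feature past the threshold (0 were) and the 2 most like Nfe2l2. The genes, lists and tests were chosen with earlier results of these data known. Symbols came with the identifiers and the chromosome of each matched. Other antioxidant genes and cell type markers were listed but could not be paired with identifiers. Replicate numbers follow accession order only. Alternatives were DESeq2 1.42.0, limma 3.58.1, sva 3.50.0, other edgeR tests, scalings and filters, and leaving out each library. The edgeR fit with legacy = FALSE was chosen after seeing the data. Counting errors are Poisson errors and cover counting alone, because these reads carry no molecular identifiers.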

Additional observations from a re-analysis of the deposited data

How the results depend on the processing

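No paired analysis was possible because the labels give no replicate numbers that the groups share. Features past the adjusted threshold numbered 0 in 8 of 11 alternatives with all libraries and in each of 10 fits without a library, with 420 to 863 features at an unadjusted p under 0.05 over all of these. The exceptions were DESeq2 with 7 of the 5338 features that kept an adjusted p, the likelihood ratio test with 2 and the fit with 1 surrogate variable with 1. The cause was not tested. With library size alone, 167 features were higher and 489 lower at an unadjusted p under 0.05, against 278 and 236 with TMM.

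None of the 8 genes passed under any of these settings, though DESeq2 gave no adjusted p for 4 of them. Cat kept its direction and an unadjusted p under 0.05 in all 21, with log2 fold changes from 0.094 to 0.128 with all libraries and from 0.104 to 0.13 without a library; its adjusted p ran from 0.6584 to 1.0. Sod1 turned to 0.016 with 1 surrogate variable. Without each library in turn the log2 fold changes ran from -0.089 to 0.085 for Sod1, 0.06 to 0.151 for Sod2, -0.023 to 0.212 for Hmox1, -0.024 to 0.153 for Nqo1, 0.002 to 0.066 for Gclc, -0.008 to 0.115 for Gclm and -0.009 to 0.06 for Nfe2l2.

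The difference in the log2 Gclm to Gclc ratio was -0.054 between medians and ran from -0.054 to 0.056 without each library. That in the Sod2 to Sod1 ratio was 0.069 between medians and ran from 0.034 to 0.144. The r of Nfe2l2 with Gclc was 0.851 centred on group means, 0.872 with library size alone and 0.854 with a prior count of 0.5, and it was 0.783 to 0.895 without each library, and it lost its call without oxytocin replicate 2 alone. Hmox1, Nqo1 and Nfe2l2 held the fewest counts, 109 to 322 in a library. The SE of the log2 fold change was largest for Hmox1 (0.15) and Nqo1 (0.12), but that of Nfe2l2 (0.075) was below that of Sod1 (0.099). How far depth sets these errors was not tested.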

Other observations

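Sod1 and Nqo1 spread more between the saline fetuses than between the oxytocin fetuses. The SD of log2 CPM of Sod1 was 0.256 after saline and 0.070 after oxytocin, a ratio of 3.67, and that of Nqo1 was 0.260 and 0.071, a ratio of 3.66 (n = 5 each). Without saline replicate 2 the ratio for Nqo1 was 2.13, and without oxytocin replicate 4 it was 5.96, while that for Sod1 ran from 2.76 to 4.5 without each library in turn. The CV of Nqo1 in the oxytocin group, 5.02%, was below its counting error of 6.70% to 8.77%. Different saline fetuses were the extremes: replicates 1 and 3 for Sod1, and replicates 4 and 2 for Nqo1. Gclc and Nfe2l2 went the other way, with ratios of 0.568 and 0.617, and Cat had an SD of 0.045 in each group. For Sod2, Hmox1 and Gclm the saline SD was 1.3 to 1.6 times the oxytocin SD. Over all tested features the saline SD was the larger in 68.8%, and it was at least 3 times the oxytocin SD in 5.61%. These spreads, and the values without a library, were chosen after seeing the data and carry no test.

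Of 20 checks for a library far from the other 4 of its group, over the 8 genes and 2 ratios, 0 exceeded Dixon's 95% critical value of 0.71. The nearest was Gclc in saline replicate 3, whose gap was 0.601 of the group's range.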
